A study of Mus musculus with 19 samples.

Results

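RGS1, RGS2, RGS3, RGS10, RGS14, RGS16 and RGS19, regulators of G protein signalling, were followed in CD44high and CD44low Tregs from injured and uninjured mice. They were chosen by name, with earlier results of these data known, and found by symbol among the STAR gene counts, where they were 7 of 24982 genes. All 7 had enough reads to be tested. Of the 14 other RGS genes in the table, 2 were tested, 7 had between 1 and 83 reads in all and 5 had none.

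RGS proteins speed the hydrolysis of GTP on G protein alpha subunits, and so shorten the signal that a chemokine receptor passes on through its Gi or Gq protein. Receptor kinases and arrestins act one step earlier, on the receptor itself. In lymphocytes RGS1 is best known for limiting migration towards chemokines, and RGS16 is known as a gene that T cell activation induces.

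The Tregs were CD4+FoxP3-GFP+ cells sorted by CD44 staining from axillary, brachial and inguinal lymph nodes, which drain the injury site. Every group came from Foxp3DTR mice, which carry the diphtheria toxin receptor and GFP at the Foxp3 locus. The mice had a scald burn of the back 7 days earlier (injured), or a sham bath at room temperature (uninjured), with the same anaesthesia, analgesia and fluid. There were 4 uninjured CD44high, 5 uninjured CD44low, 4 injured CD44high and 6 injured CD44low libraries, 19 in all. The mice were adults, matched by age and sex per the study's methods, but the labels give neither age nor sex per library and do not say whether a library holds 1 mouse or several, so p-values measure the spread between libraries, which may be technical.

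Library totals ran from 5582234 to 9433610 counts. CD44 was 2.16 higher on the log2 scale in uninjured CD44high than in CD44low Tregs (edgeR quasi-likelihood test, adjusted p = 6.17e-13). The 6 Treg markers summed to more CPM (reads scaled to a common library size) in every CD44high library than in any CD44low library. The sums were 3937 to 4339 CPM in uninjured and 3934 to 4372 in injured CD44high Tregs. In CD44low Tregs they were 3331 to 3803.5 CPM in uninjured and 3137 to 3783 in injured mice. Among these markers CTLA4 and IKZF2 were higher and IL2RA lower in CD44high Tregs, in both uninjured and injured mice. FOXP3 itself did not pass the test between the subsets (log2 difference -0.39 in uninjured and -0.55 in injured mice). The 6 macrophage and dendritic cell markers were low but unequal: 64.8 to 134 CPM in uninjured CD44high, 19.7 to 37.2 in uninjured CD44low, 81.7 to 221 in injured CD44high and 31.5 to 142 in injured CD44low Tregs, with CLEC9A at 0 in uninjured CD44low Tregs. The 6 B cell markers summed to between 72.1 and 209 CPM, with overlap among all 4 groups. Between uninjured subsets CD79B was higher in CD44high Tregs (mean 77.4 against 43.1 CPM, log2 difference 0.84, edgeR adjusted p = 0.00037). The other 5 did not pass there. The 3 neutrophil markers summed to 0 to 0.178 CPM in uninjured CD44high and 0 to 1.69 in uninjured CD44low Tregs, and to 1.06 to 19.04 and 0 to 28.9 CPM in the injured ones, where S100A9 rose in both subsets. Of these 3, LY6G had no read outside injured CD44high Tregs.

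3 of the 6 injured CD44low libraries (1_2, 4_2 and 5_2) carry a second number that the labels do not explain. They stood apart from the others (1, 2 and 5). Numbers 1 and 5 occur in both sets. The labels do not say whether 1_2 and 5_2 repeat the mice of 1 and 5, so the 6 libraries may not be independent. Between these sets 4 of the 7 RGS genes did not overlap, against 19.3% of all genes tested. RGS2 was 34.9 to 41.1 CPM without and 60.0 to 67.6 CPM with the second number, and RGS16 was 10.5 to 15.3 and 17.6 to 25.2 CPM. RGS1 was also higher with the second number, at 351.5 to 415 CPM against 284 to 351.4 CPM, and RGS3 lower, at 48.3 to 49.3 against 55.0 to 57.9 CPM. Calls of the 7 RGS genes that rest on these libraries are given with and without them. The pathway lists were recounted in the same way, and the marker lists and sort genes were not.

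RGS2, RGS1 and RGS16 lie on chromosome 1. In the RefSeq gene order RGS2 and RGS1 belong to a run of 5 RGS genes with no other protein-coding gene between them, Rgs2, Rgs13, Rgs1, Rgs21 and Rgs18, and RGS16 stands beside Rgs8. The other 4 members lie on chromosomes 2, 4, 7 and 13. The 250 bases before the annotated start are shown for the 3 genes that injury changed. They are RefSeq sequences of build GRCm38.p6, at chr1:144004150-144004399 (minus strand) for RGS2, chr1:153740103-153740352 (plus strand) for RGS16 and chr7:128418173-128418422 (minus strand) for RGS10. Capitals mark TGACG, part of the site of cyclic AMP response factors, and TAAAAG, a run that resembles the TATA box, on either strand.
RGS2: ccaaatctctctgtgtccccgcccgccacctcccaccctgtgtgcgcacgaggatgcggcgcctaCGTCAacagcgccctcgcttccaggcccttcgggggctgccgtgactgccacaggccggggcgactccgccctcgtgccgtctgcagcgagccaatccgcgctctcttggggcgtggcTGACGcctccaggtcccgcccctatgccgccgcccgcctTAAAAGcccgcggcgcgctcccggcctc
RGS16: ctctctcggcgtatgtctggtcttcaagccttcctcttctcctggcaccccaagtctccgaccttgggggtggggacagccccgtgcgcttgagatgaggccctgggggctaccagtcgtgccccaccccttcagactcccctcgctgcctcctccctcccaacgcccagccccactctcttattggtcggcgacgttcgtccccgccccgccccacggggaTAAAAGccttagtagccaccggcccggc
RGS10: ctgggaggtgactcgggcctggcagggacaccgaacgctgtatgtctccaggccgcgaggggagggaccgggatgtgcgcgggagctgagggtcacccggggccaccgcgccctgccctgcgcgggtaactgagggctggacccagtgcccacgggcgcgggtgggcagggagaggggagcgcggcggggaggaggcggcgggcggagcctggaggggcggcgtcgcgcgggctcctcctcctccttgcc

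The RGS2 window held TGACG 67 bases before the start and its reverse complement 185 bases before, and the windows of RGS16 and RGS10 held none. TGACG was found on either strand in 17.8% of 32851 mouse windows of the same length. TAAAAG began 28 bases before the start in both RGS2 and RGS16 and was absent from the RGS10 window, and 13.6% of all windows held it on either strand. The AP-1 site TGANTCA (6.75% of all windows) and the NFAT core GGAAA (55.6%) were in none of the 3 windows. GC content was 72.4% for RGS2, 66.4% for RGS16 and 76.4% for RGS10, where the median of all windows was 52.4%. These letters were chosen with the sequences in view, and overlap no other motif searched. RefSeq windows were found for 5 of the 7 members, without RGS1 and RGS14.

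Per kilobase of annotated exon, RGS10 had the highest mean level of the 7 genes in all 4 groups, from 88.3 CPM per kilobase in uninjured CD44high to 163 in injured CD44low Tregs. RGS10 is a small RGS protein that acts on Gi. In uninjured CD44low Tregs RGS1 (78.3), RGS19 (69.5) and RGS14 (62.4 CPM per kilobase) followed, and the libraries of these neighbours overlapped. In uninjured CD44high Tregs the order was RGS14 (73.5), RGS19 (66.9) and RGS1 (40.5 CPM per kilobase), and here RGS1 lay below both in every library, while the libraries of RGS10, RGS14 and RGS19 overlapped with the next in order. RGS2, RGS16 and RGS3 were the 3 lowest in every group, and RGS3 was the lowest, at 6.71 to 8.95 CPM per kilobase. The exon length used was the union over all annotated transcripts, which is 7831 bases over 5 transcripts for RGS3. This order depended on the length used: with the shortest coding transcript RGS19 and RGS2 came before RGS10 in uninjured CD44high Tregs, and RGS16 was the lowest gene in every group.

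**Figure D1:**
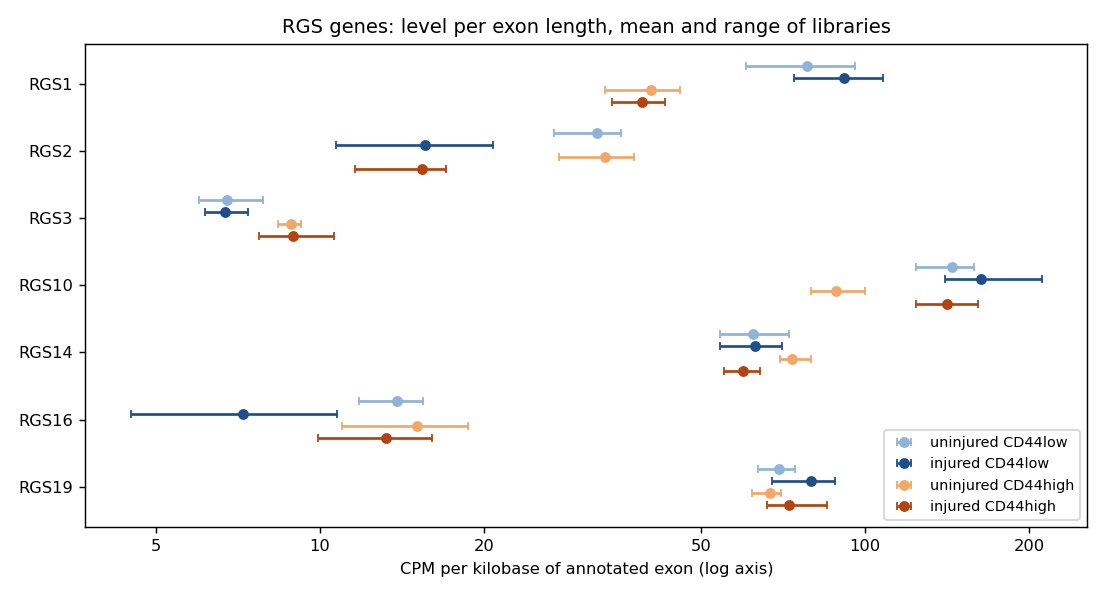
Mean CPM per kilobase of annotated exon (log axis) of each RGS gene, with bars from the lowest to the highest library, for the 4 groups. RGS10 has the highest mean in each group (88.3 to 163) and RGS3 the lowest (6.71 to 8.95).

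The first question was which RGS genes separated CD44high from CD44low Tregs, subsets that differed in most chemokine receptors. RGS1 was lower in CD44high Tregs whether mice were injured or not, by 1.93-fold in uninjured and 2.34-fold in injured mice, and RGS3 was higher, by 1.31-fold and 1.33-fold. RGS10 was lower in uninjured CD44high Tregs by 1.64-fold, and RGS16 was higher in injured CD44high Tregs by 1.84-fold. In uninjured mice 1 of the 7 genes was higher and 2 were lower in CD44high Tregs, where 24.7% of the 11464 genes tested were higher and 21.3% lower. In injured mice 2 were higher and 1 was lower, where 20.1% of all genes were higher and 17.2% lower. The libraries did not overlap for 3 members in uninjured mice (40.7% of all genes) and for 2 in injured mice (24.8%). The members' median log2 difference was 0.05 in uninjured and -0.08 in injured mice, and that of all genes was 0.01 and -6e-04.

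RGS1, a brake on Gi- and Gq-coupled chemokine receptors, was measured at 150, 128, 176 and 168 CPM in uninjured CD44high Tregs. It was 233, 295, 329, 368 and 278 CPM in uninjured CD44low Tregs. Every CD44low library was above every CD44high library, and the difference was -0.95 on the log2 scale (SE 0.136, edgeR adjusted p = 4.37e-06). In injured mice RGS1 was 132, 165, 140 and 162 CPM in CD44high Tregs, and from 284 to 415 CPM (median 351) in CD44low Tregs. Again the subsets did not overlap, and the log2 difference was -1.23 (SE 0.133, edgeR adjusted p = 9.37e-08). It was -1.07 without the 3 libraries of the second number and -1.40 with only those 3. CCR7, the receptor that brings T cells into lymph nodes, was also lower in uninjured CD44high Tregs (log2 difference -1.71, edgeR adjusted p = 6.17e-13).

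RGS3 acts on both Gi and Gq. It was 72.3, 72.3, 67.3 and 65.6 CPM in uninjured CD44high and 61.7, 48.0, 49.4, 47.0 and 58.9 CPM in uninjured CD44low Tregs. The 2 groups did not overlap, and the log2 difference was 0.39 (SE 0.12, edgeR adjusted p = 0.0106). In injured mice it was 60.6, 83.1, 61.8 and 74.9 CPM in CD44high and 48.3 to 57.9 CPM (median 52.2) in CD44low Tregs, a log2 difference of 0.42 (SE 0.114, edgeR adjusted p = 0.00606). All 4 CD44high libraries were above all 6 CD44low libraries. Without the 3 libraries of the second number the difference of 0.32 no longer passed the test (edgeR adjusted p = 0.0753). With all libraries and a replicate block on the library number within each treatment, it was 0.34 and did not pass (edgeR adjusted p = 0.0626). The macrophage and dendritic cell markers were also higher in CD44high Tregs in uninjured mice, without overlap, and their part in the level of RGS3 was not tested.

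RGS10 was measured at 91.0, 90.6, 114 and 107 CPM in uninjured CD44high and at 141, 162, 176, 181 and 163 CPM in uninjured CD44low Tregs. The CD44low libraries were all higher, with a log2 difference of -0.71 (SE 0.124, edgeR adjusted p = 5.86e-05). In injured mice the subsets overlapped, at 141 to 183 CPM in CD44high and 160 to 240 CPM in CD44low Tregs, and the log2 difference was -0.21 (95% interval -0.45 to 0.04, edgeR adjusted p = 0.175). It was -0.11 without the libraries of the second number and -0.32 with only those, and passed with neither.

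RGS16, another brake on Gi and Gq, was 25.6, 30.2, 41.3 and 43.7 CPM in uninjured CD44high and 36.2, 32.0, 34.6, 27.6 and 31.9 CPM in uninjured CD44low Tregs. These overlapped, with a log2 difference of 0.12 (95% interval -0.31 to 0.55). In injured mice it was 23.2, 37.7, 34.7 and 28.3 CPM in CD44high and 10.5 to 25.2 CPM (median 16.5) in CD44low Tregs. 1 CD44low library reached above the lowest CD44high library, and the log2 difference of 0.88 passed the test (SE 0.202, edgeR adjusted p = 0.0014). It was 1.27 without the 3 libraries of the second number and 0.54 with only those 3. An annotated gene on the opposite strand, Gm28513, covers 10.1% of the RGS16 exon bases, and the reads of the 2 genes cannot be told apart there unless strand was used in the counting, which neither labels nor methods state.

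RGS14, which also binds inactive Gi alpha through a second domain, was 164 to 187 CPM in uninjured CD44high and 128 to 171 CPM in uninjured CD44low Tregs. The groups overlapped and the log2 difference of 0.24 (SE 0.10, edgeR adjusted p = 0.0570) missed the threshold. It passed under 7 of 27 alternative settings, DESeq2 among them (adjusted p = 0.0339), and adjusted p ran from 0.0258 to 0.184. RGS19, a palmitoylated RGS protein that acts on Gi, and RGS2, which favours Gq, overlapped between the subsets in both uninjured and injured mice. Their log2 differences in uninjured mice were -0.06 (95% interval -0.26 to 0.15) and 0.05 (95% interval -0.32 to 0.42). For RGS2 in injured mice the value depended on the libraries used: it was -0.02 over all libraries, 0.42 without those of the second number (edgeR adjusted p = 0.0342) and -0.38 with only those (edgeR adjusted p = 0.0472).

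**Figure D2:**
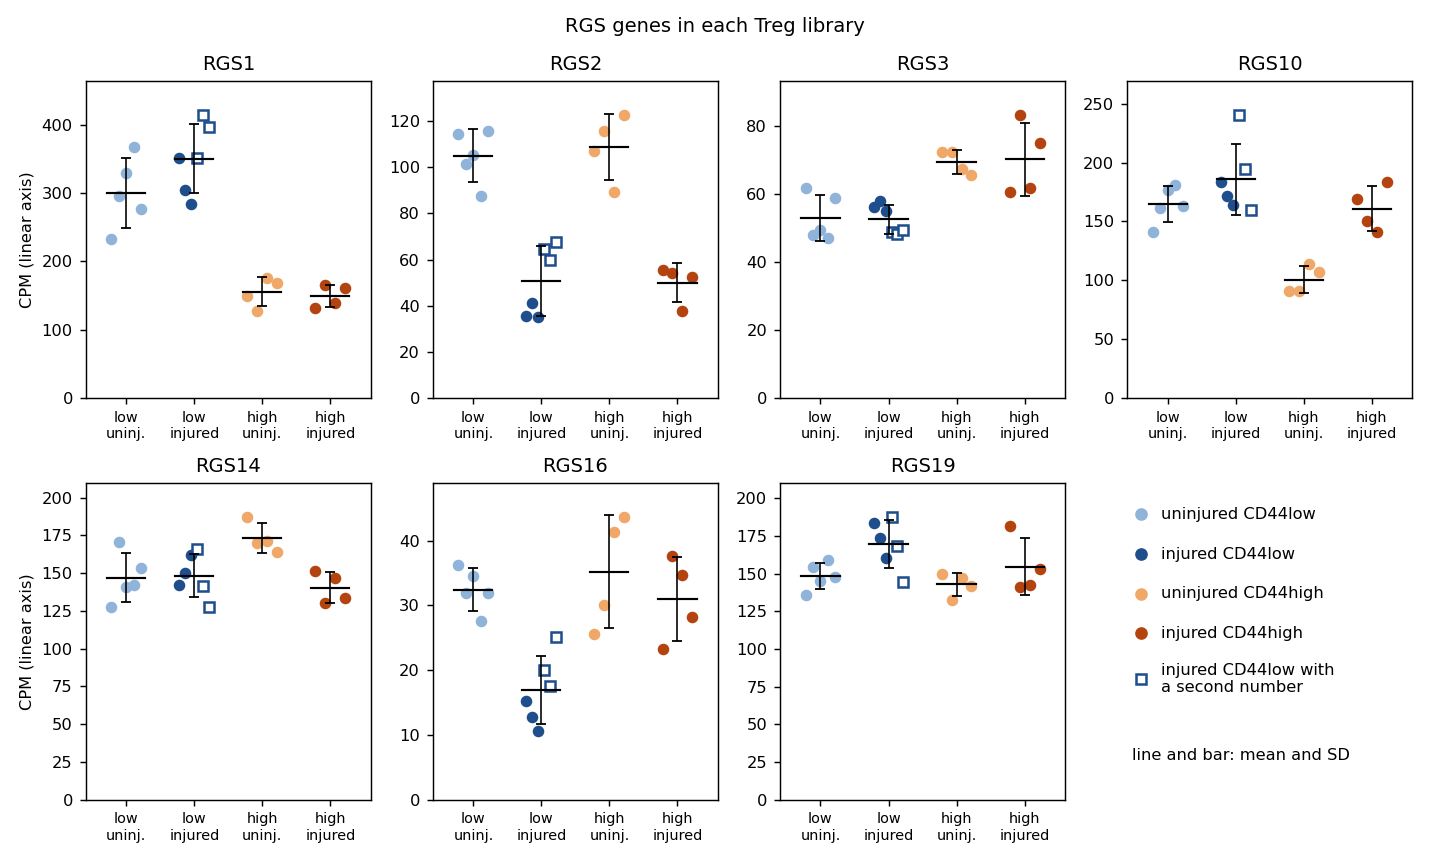
CPM (linear axes from 0) of each RGS gene in every library, with the mean (line) and SD (bar) of each group. Open squares are the 3 injured CD44low libraries with a second number. RGS1 separates the subsets, RGS2 is lower after injury in both, and RGS10 in uninjured CD44high Tregs lies below all other groups.

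The second question was which RGS genes changed after injury within each subset. RGS2 fell after injury in both subsets, by 2.18-fold in CD44high and 2.07-fold in CD44low Tregs. RGS10 rose by 1.60-fold in injured CD44high Tregs, and RGS16 fell by 1.92-fold in injured CD44low Tregs. In CD44high Tregs 1 gene rose and 1 fell, where 1.06% of all genes tested rose and 1.33% fell. In CD44low Tregs 2 genes fell and 0 rose, where 3.36% of all genes fell and 4.24% rose. The libraries of injured and uninjured mice did not overlap for 3 members in CD44high Tregs (13.2% of all genes) and for 2 in CD44low Tregs (4.68%). The members' median log2 change was -0.06 in CD44high and 0.01 in CD44low Tregs, and that of all genes was -0.02 and 0.01. In a bulk sample a change in the cells that express a gene and a change in RNA per cell cannot be told apart.

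RGS2 was 107, 116, 89.3 and 123 CPM in uninjured and 55.5, 54.4, 37.7 and 52.6 CPM in injured CD44high Tregs. All 4 injured libraries lay below all uninjured ones, and the log2 change was -1.12 (SE 0.192, edgeR adjusted p = 0.00154). In CD44low Tregs it was 114, 101, 105, 87.6 and 116 CPM in uninjured and 34.9 to 67.6 CPM (median 50.5) in injured mice. No injured library reached the lowest uninjured one, and the log2 change was -1.05 (SE 0.163, edgeR adjusted p = 0.000634). The change was -1.49 (edgeR adjusted p = 2.06e-06) without the libraries of the second number and -0.69 (edgeR adjusted p = 0.0119) with only those. Some genes of the marker lists changed in the same libraries, though no list passed in full. In CD44high Tregs 2 of the 3 follicular T cell markers tested rose (CXCR5 and PDCD1), as did S100A9 among the neutrophil markers and PECAM1 among the 4 markers of stroma and vessels, which summed to 59.3 to 73.0 CPM in uninjured and 78.4 to 114 CPM in injured mice with PDPN at 0. In CD44low Tregs LYZ2 rose among the macrophage and dendritic cell markers and S100A9 among the neutrophil markers. KLRB1C (mean 0.294 and 2.32 CPM) rose among the 4 markers of CD8 T and NK cells, and PDCD1 among the follicular T cell markers. In these last 2 lists the means of CD8A (11.2 and 8.39 CPM), CD8B1 (47.0 and 43.2) and BCL6 (20.1 and 14.8) went down. Those of NCR1, CXCR5 and IL21 went up, and none of these passed. Their part in the change of RGS2 was not tested.

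RGS10 was 91.0, 90.6, 114 and 107 CPM in uninjured and 169, 150, 141 and 183 CPM in injured CD44high Tregs. The lowest injured library was above the highest uninjured one, and the log2 change was 0.68 (SE 0.129, edgeR adjusted p = 0.00399). In CD44low Tregs the groups overlapped, with 141 to 181 CPM in uninjured and 160 to 240 CPM in injured mice, and the log2 change was 0.17 (95% interval -0.06 to 0.40), which was 0.07 without the libraries of the second number and 0.29 with only those. The 4 markers of follicular T cells summed to 168 to 198 CPM in uninjured and 327 to 396 CPM in injured CD44high Tregs. None of the 4 was at 0. The sum rose in the subset where RGS10 rose and RGS2 fell. In CD44low Tregs, where RGS2 also fell, the sum overlapped, at 106 to 171 CPM in uninjured and 132 to 221 CPM in injured mice. Most of the sum in CD44high Tregs was PDCD1 (mean 145 CPM in uninjured and 272 in injured mice). There IL21 went the other way (1.46 and 0.444 CPM). The part of these markers in the change of RGS10 was not tested, nor was that of S100A9 and PECAM1.

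RGS16 was 27.6 to 36.2 CPM in uninjured CD44low Tregs and 10.5 to 25.2 CPM in injured ones, libraries that did not overlap. The log2 change was -0.94 (SE 0.193, edgeR adjusted p = 0.0058). Without the libraries of the second number it was -1.33 (edgeR adjusted p = 0.000363), and with only those it was -0.61 and did not pass (edgeR adjusted p = 0.0895). The 4 follicular T cell markers summed to 106 to 171 CPM in uninjured and 132 to 221 CPM in injured CD44low Tregs, with IL21 at 0 in the uninjured, and the 4 CD8 T and NK cell markers to 49.98 to 67.5 and 47.6 to 60.1 CPM. The part in the fall of RGS16 of the markers that rose with injury (LYZ2, S100A9, KLRB1C and PDCD1) was not tested. In CD44high Tregs RGS16 overlapped between injured and uninjured mice and its log2 change was -0.19 (95% interval -0.64 to 0.27).

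The other members did not pass the test after injury. RGS14 was 187, 170, 171 and 164 CPM in uninjured and 151, 130, 147 and 134 CPM in injured CD44high Tregs, without overlap, and its log2 change of -0.30 (SE 0.106) had an edgeR adjusted p of 0.150. RGS1 had a log2 change of -0.06 (95% interval -0.35 to 0.24) in CD44high and 0.22 (95% interval -0.03 to 0.47) in CD44low Tregs, where it was 0.06 without the libraries of the second number and 0.39 with only those. RGS3 changed by 0.02 and -0.01 and RGS19 by 0.11 and 0.19 on the log2 scale.

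**Figure D3:**
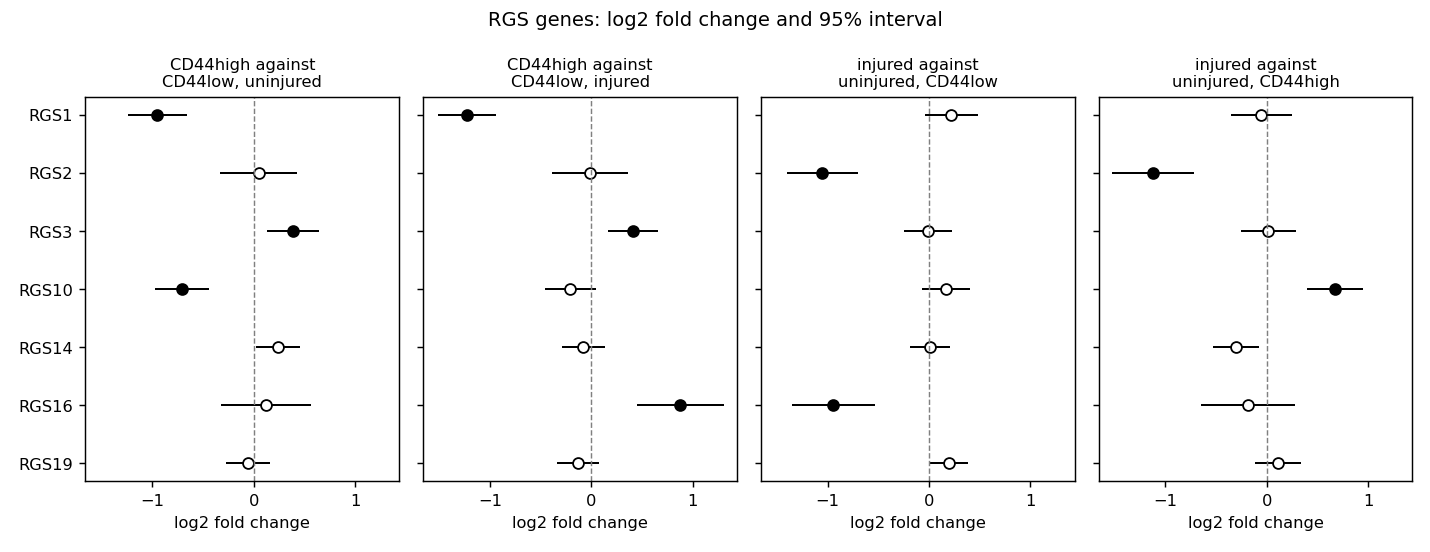
Log2 fold change with its 95% interval for each RGS gene in the 4 comparisons, from edgeR. Filled points passed an adjusted p of 0.05. RGS2 lies at -1.12 and -1.05 after injury and at 0.05 and -0.02 between the subsets, and RGS1 at -0.95 and -1.23 between the subsets.

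The third question was whether injury acted differently on the RGS genes of the 2 subsets. The interaction compares the log2 change after injury in CD44high with that in CD44low Tregs. None of the 7 genes passed (0 by edgeR and 0 by DESeq2, 3 by each at an unadjusted p under 0.05), where 0.645% of all genes did. The values at an unadjusted p under 0.05 were 0.50 for RGS10 (SE 0.169, edgeR adjusted p = 0.199), 0.76 for RGS16 (SE 0.292, edgeR adjusted p = 0.300) and -0.32 for RGS14 (SE 0.14, edgeR adjusted p = 0.400). So the rise of RGS10 in CD44high and the fall of RGS16 in CD44low Tregs were not shown to differ from the change in the other subset. Without the libraries of the second number both passed, RGS10 at 0.60 (edgeR adjusted p = 0.0366) and RGS16 at 1.14 (edgeR adjusted p = 0.0262), and with only those libraries neither did. For RGS2 the interaction was -0.07 (95% interval -0.59 to 0.45).

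The genes that stand before the RGS proteins in the pathway were read from the same test. Of all genes tested 24.7% were higher and 21.3% lower in uninjured CD44high Tregs, and 20.1% and 17.2% in injured ones. Of 16 chemokine receptors tested (19 listed), 12 were higher and 3 lower in uninjured CD44high Tregs, and 12 were higher and 2 lower in injured ones. CCR2 (log2 difference 5.68 in uninjured and 4.20 in injured mice) and CXCR6 (6.03 and 4.44) had the smallest p among those higher, and CCR7 (-1.71 and -1.69) and CCR9 (-1.32 and -1.43) among those lower. The list's median log2 difference was 2.95 in uninjured mice, beside 0.05 for the 7 RGS genes and 0.01 for all genes. After injury CXCR5 rose and CCR10 and CXCR3 fell in CD44high Tregs, and CCR2, CXCR6, CCR4 and CCR10 rose in CD44low Tregs. The interaction passed for 4 of the 16, CCR10, CCR2, CXCR6 and CXCR3, beside 0.645% of all genes, and for none of the RGS genes. Without the libraries of the second number 5 receptors rose in CD44low Tregs and 6 passed the interaction. With only those 2 rose (CCR10 and CCR2) and the same 4 passed. Between injured subsets 11 receptors were higher and 2 lower without those libraries, and 12 and 2 with only those.

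Of 10 G alpha genes tested, 6 were higher and 1 lower in uninjured CD44high Tregs, and 4 were higher and 0 lower in injured ones. The shares of all genes were 24.7% higher and 21.3% lower in uninjured, and 20.1% and 17.2% in injured mice. GNAI2, the main Gi alpha subunit of lymphocytes and a target of most members, was 0.45 higher on the log2 scale in uninjured CD44high Tregs (edgeR adjusted p = 6.2e-05), and its difference of 0.13 in injured mice did not pass, but did without the libraries of the second number. GNA15, a Gq-class subunit of blood cells, was 3.56 and 2.87 higher on the log2 scale. Of 9 G beta and gamma genes, 4 were higher in uninjured and 3 in injured CD44high Tregs, with 0 lower. Of all genes 24.7% were higher in uninjured and 20.1% in injured CD44high Tregs. Of 6 receptor kinases and arrestins tested, 3 were lower in uninjured CD44high Tregs (ARRB1, ARRB2 and GRK6), 0 were higher and 3 did not pass, beside 21.3% lower of all genes. In injured mice 2 were lower (GRK6 and ARRB1), 0 were higher and 4 did not pass, beside 17.2% lower of all genes. ARRB1, which uncouples and carries receptors inward, was lower by a log2 difference of -1.16 in both. Of the 5 other G protein regulators GPSM2 was higher (log2 difference 1.94 and 1.22) and GPSM3 lower (-0.65 and -0.60), and RIC8A was lower in injured mice (-0.29). After injury none of these genes passed in either subset other than GNA15, which rose by 0.60 on the log2 scale in CD44low Tregs (edgeR adjusted p = 0.0142), a call lost with only the libraries of the second number. Without those libraries GNG2 fell, and with only those GNB2 rose. Between injured subsets 5 G alpha genes were higher and 1 lower without those libraries, and 3 higher and 0 lower with only those. The receptor kinases and arrestins were lower for 3 (ARRB2 added) and for 2, and RIC8A was lower without and did not pass with only those. Of the G beta and gamma genes GNG2, GNG10 and GNB2 were higher without those libraries, and GNG2 and GNB4 with only those.

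**Figure D4:**
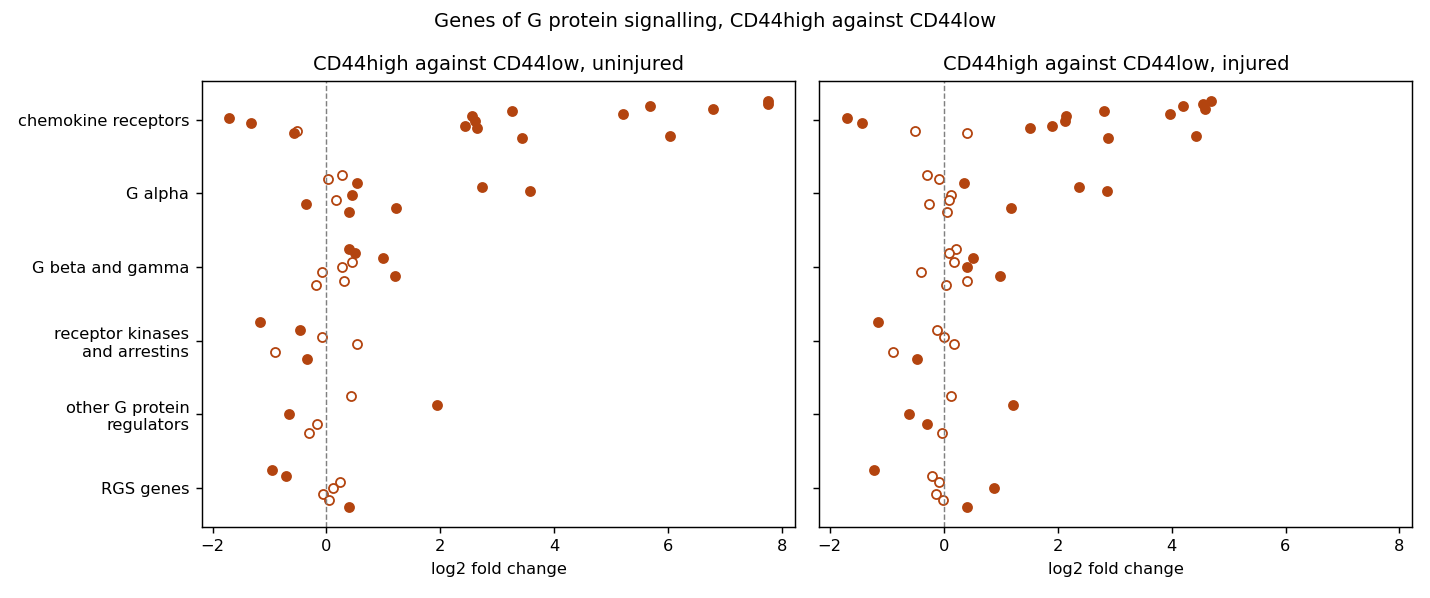
Log2 fold change, CD44high against CD44low, of each tested gene of 5 lists of G protein signalling and of the 7 RGS genes, in uninjured (left) and injured (right) mice. Filled points passed an adjusted p of 0.05. Most chemokine receptors lie between 1 and 8, and all RGS genes lie between -1.23 and 0.88.

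Of the other RGS genes, RGS9 and RGS12 were tested. RGS9 was a mean of 10.1 CPM in uninjured CD44high and 3.15 CPM in uninjured CD44low Tregs, and was higher in CD44high Tregs in both uninjured (log2 difference 1.67, edgeR adjusted p = 0.002) and injured mice (1.13, edgeR adjusted p = 0.0307), the latter a call lost without the libraries of the second number. RGS12, a large relative of RGS10 and RGS14, was higher in uninjured mice only by the test (1.44, edgeR adjusted p = 0.00404), and its difference in injured mice was 0.06. The interaction of RGS12 was -1.37 and did not pass (edgeR adjusted p = 0.317). RGS13 and RGS18, both in the run of RGS genes that holds RGS1 and RGS2, had 13 and 83 reads over all 19 libraries, and RGS21 had 0. RGS7, RGS8, RGS17 and RGS22 had 0 reads as well.

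The genes with the most similar pattern were sought by the smallest root mean square difference of log2 CPM over the 19 libraries, each gene centred on its mean, among 11463 other genes. They were CHD3 and CYTIP for RGS1 (both 0.209), JUNB (0.297) and VGLL4 (0.311) for RGS2, BAZ1A (0.129) and G6PDX (0.130) for RGS3, and BZW2 (0.117) and LYSMD2 (0.134) for RGS10. For RGS16 they were SETD5 (0.295) and FMR1 (0.297). RGS2, RGS1 and RGS16 had the widest spread around their own means (0.616, 0.577 and 0.551), and the nearest genes of RGS2 and RGS16 were the least similar. RGS14 (0.156) and RGS19 (0.145) varied least, and their nearest genes were NOSIP (0.0997) and CNN2 (0.0756).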

How the data were processed

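RNA of sorted Tregs was converted to cDNA with SMART-Seq v4 and made into Swift 2S libraries. The authors counted reads on genes with STAR (VIPER workflow) and deposited raw counts, without normalization and with libraries kept apart. Their notes name bcl2fastq 2.18, STAR 2.5 and the builds mm9 and mm10, without roles, and neither annotation nor strand setting is stated.

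With R 4.3.3 and edgeR 4.0.16, genes passing edgeR's filter (minimum count 10) were fitted with TMM factors and 1 mean for each of the 4 groups over 19 libraries, without a replicate block. The quasi-likelihood test was two-sided, with Benjamini-Hochberg adjustment over 11464 genes, and genes were called at an adjusted p under 0.05. The test was tried on simulated data. CPM used TMM-scaled totals. Exon lengths came from GENCODE vM21, promoters and gene order from RefSeq (GRCm38.p6), and all 7 symbols matched both. Reads carry no molecular identifiers, so totals speak for counting error only. Figures used Python 3.11.15 and matplotlib 3.10.9.

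The RGS genes, pathway lists and marker lists were chosen with earlier results of these data known. The rule for naming took every RGS gene and the sort genes. Per list and comparison it took the 2 called genes of smallest p in each direction. It also took the 2 genes nearest to each RGS gene in pattern. Not all of these are printed above. Among those left out are GNAL, GNA14, GNB4, GNG10, LPAR6 and RGS genes with few reads. Also left out are the second nearest genes of RGS14 and RGS19 (D230025D16RIK and CDC37). The sort gene CD4, left out too, was called higher in injured CD44high than CD44low Tregs. CCR4, GNAI2 in injured mice and any list gene outside this rule were named after their values were seen. Alternatives were DESeq2 1.42.0, RLE factors, no filter, the compared groups alone, a replicate block, libraries 1 with 1_2 and 5 with 5_2 summed, the 3 libraries of a second number left out, the study's threshold and each library left out. Using only those 3 libraries, recounting the lists without them, and counting libraries that do not overlap, were chosen after seeing the data.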

Additional observations from a re-analysis of the deposited data

Results flagged for a closer look

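RGS2 in injured CD44high library 4 was 37.7 CPM, while the other 3 libraries of the group lay between 52.6 and 55.5 CPM, a gap larger than Dixon's limit at 95% for 4 values. It was 1 of 28 sets of libraries examined (7 genes in 4 groups), and chance flags about 1 in 20. Without this library the log2 change of RGS2 after injury in CD44high Tregs was -1.0 (edgeR adjusted p = 0.00853).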

How the results depend on the processing

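The 35 log2 values of the 7 RGS genes were recomputed under 945 alternatives, of which 891 kept direction and call, 3 lost the call, 10 gained it and 41 turned direction, the latter from values between -0.08 and 0.12. Beyond fewer samples or a stricter rule by construction, the cause was not tested. Without the 3 libraries of a second number 2 genes passed the interaction, and with only those 1 gene passed for injury in CD44low Tregs. With libraries 1 and 1_2 summed, and 5 and 5_2, RGS14 between uninjured subsets passed. No other RGS value changed call or direction under that setting. By the study's threshold (unadjusted p under 1e-06 and 2-fold), taken here on the edgeR p, 0 genes passed between the subsets in uninjured mice. It was 1 in injured mice, and 0 for injury in either subset. The study used DESeq2, and genes passing its threshold were not counted with DESeq2 here. RGS3 after injury in CD44low Tregs turned to 0.0077 with DESeq2, 0.0064 with RLE factors, 0.0207 without the filter and 0.0898 without the 3 libraries, which also gave 0.4243 for RGS2 between injured subsets, and 0.3721 for RGS2 and -0.0722 for RGS3 in the interaction. Library numbers were not taken to pair the samples, by a rule that every pair pass 0.1, which does not settle whether they do. Of 8 same-number pairs of subsets 4 had a correlation of deviations over 0.1 (median 0.0815). Among pairs of subsets with different numbers 5 of 36 had (median -0.0214), and of 10 same-number pairs of injured and uninjured libraries 0 had. With a replicate block within each treatment RGS3 between injured subsets was 0.34 (adjusted p = 0.0626), and the interaction was -0.1168 for RGS3 and 0.036 for RGS19. With each library left out in turn, RGS2 ran from -0.0188 to 0.1366 between uninjured subsets, -0.121 to 0.101 between injured subsets and -0.161 to 0.048 in the interaction. RGS3 ran from -0.0754 to 0.0904 after injury in CD44high, -0.0253 to 0.0751 in CD44low Tregs and -0.0666 to 0.0833 in the interaction. RGS16 ran from -0.01 to 0.2316 between uninjured subsets, RGS1 from -0.1252 to 0.0118 after injury in CD44high, and RGS14 from -0.0213 to 0.0959 in CD44low Tregs. Over all genes, edgeR and DESeq2 called 273 and 476 for injury in CD44high, 871 and 1451 in CD44low Tregs, and 74 and 217 in the interaction. The block on the number called 439 for injury in CD44low Tregs, and that within treatment 35 in the interaction. DESeq2 called 5 chemokine receptors for injury in CD44high and 7 in CD44low Tregs, where edgeR called 3 and 4.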

Other observations

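Of 28 other G protein-coupled receptors listed, 17 were tested. In uninjured CD44high Tregs 6 were higher and 6 lower, beside 24.7% and 21.3% of all genes. In injured ones 6 were higher and 5 lower, beside 20.1% and 17.2%. Without the libraries of the second number 5 were higher and 5 lower of 18 tested, and with only those 6 and 6 of 17. LTB4R1 (log2 difference 6.39 in uninjured mice) and HRH4 were among those higher, and GPR34 (-2.38 in uninjured mice) among those lower. S1PR1, the receptor for lymph node exit, was also lower in CD44high Tregs (log2 difference -0.97 in uninjured and -0.74 in injured mice). GPR183, which guides cells by oxysterols, rose after injury by 1.85 in CD44high and 0.79 in CD44low Tregs, the latter a call lost with only the libraries of the second number, and its interaction of 1.06 passed the test (edgeR adjusted p = 0.0266).

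Of the summed level per kilobase of the 7 RGS genes, RGS10 made up a median of 26.9% in uninjured and 39.6% in injured CD44high Tregs, and RGS2 10.7% and 4.51%. In CD44low Tregs RGS1 made up 18.6% and 20.7% and RGS2 7.68% and 3.58%. The sum itself was 305 to 341 CPM per kilobase in uninjured and 324 to 369 in injured CD44high Tregs, and 361 to 434 and 384 to 495 in CD44low Tregs. No test was made of these shares.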
